A study of Mus musculus with 21 samples.

Results

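The SLAM family receptors are cell surface proteins of the immunoglobulin superfamily. All 9 genes of the family's cluster on mouse chromosome 1 were followed here: Cd244a, Ly9, Slamf7, Cd48, Slamf1, Cd84, Slamf6, Slamf9 and Slamf8. They were chosen by position, and their symbols were matched to the Ensembl gene identifiers of the deposited tables. All 9 were found, among 55401 genes in the count table. The family was picked with earlier results of these data known, so its calls are a description of these mice and not independent evidence.

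Forebrain RNA was sequenced from 21 mice in 6 groups. E2H, E3H and E4H mice (3 each) are homozygous for human APOE2, APOE3 or APOE4 put in place of mouse Apoe by targeted replacement, were kept on a C57BL6 background and were killed at 9 to 10 months of age. The tau mice, called PS19 mice below, 4 in each group (PS/E2H on APOE2, PS/E3H on APOE3, PS/E4H on APOE4), carry the same homozygous APOE alleles and, in addition, 1 copy of the PS19 transgene for P301S mutant human tau, which the mouse prion promoter drives. The PS19 line was kept on a B6/C3H background before it was crossed and back-crossed to the APOE lines, and the tau mice were killed when their hindlimbs were paralyzed. E2H, E3H and E4H are called parental below. Where tau mice are set against parental mice, the transgene, paralysis, age at death and remaining C3H background cannot be told apart. In APOE2 and APOE4 mice sex cannot be told apart from these either, as the share of females differed. SLAM genes are known to differ in sequence between inbred strains, and the strain origin of the cluster in each mouse was not analysed here. Most mice were male, with 4 females spread over E4H, PS/E2H and PS/E4H, and sex was not used in any fit because it is known per group only. Nothing states that mice came from separate litters, and the p-values measure the spread between these mice. Total counts ran from 59265459 to 75932183 per mouse with a median of 63751715, and mouse Apoe held 617 to 1164 counts over the 21 mice.

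Most SLAM receptors bind another copy of themselves on a neighbouring cell, while CD48 is the ligand of CD244. The cytoplasmic tails of many members carry tyrosine switch motifs that recruit the small adaptors SAP and EAT-2, through which Src family kinases are engaged, or phosphatases such as SHP-1. The family is known mainly from lymphocytes, NK cells, macrophages and dendritic cells, and in brain it is counted among the genes of microglia and of the haematopoietic cells that enter the tissue.

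On GRCm38, with the gene models of GENCODE M21, the family lies within 1031.4 kb of chromosome 1, from 171559193 to 172590568. The first 7 genes form a core of 394.0 kb with a single other protein-coding gene, Gm10521, between them. In order they are Cd244a (ENSMUSG00000004709, 171559193 to 171609746), Ly9 (ENSMUSG00000004707, 171588624 to 171607410), Slamf7 (ENSMUSG00000038179, 171632403 to 171653035), Cd48 (ENSMUSG00000015355, 171682009 to 171705258), Slamf1 (ENSMUSG00000015316, 171767127 to 171801184), Cd84 (ENSMUSG00000038147, 171839697 to 171890718) and Slamf6 (ENSMUSG00000015314, 171917515 to 171953170). After a gap of 522.2 kb come Slamf9 (ENSMUSG00000026548, 172475358 to 172478575) and, further on, Slamf8 (ENSMUSG00000053318, 172581758 to 172590568). Beyond the core, up to the end of Slamf8, lie 18 other protein-coding genes. Ly9, Slamf7 and Slamf8 are read from the minus strand and the others from the plus strand. Cd244a and Ly9 overlap on opposite strands as gene spans. Of the windows of 50 bases in their annotated transcripts, 0% occur on the opposite strand in transcripts of other genes. Whether the counting used strand is not given in the sources used here, so other reads from their shared stretch may not be told apart.

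RefSeq promoters, from 250 bases before to 50 bases after the gene start, were given for 8 of the 9 genes on GRCm38.p6, all but Ly9. Motifs were searched on both strands of these windows. The PU.1 core GAGGAA was found in 4 of the 8 (Cd244a, Cd84, Slamf9 and Slamf8), against 28.3% of 32851 promoters. The interferon-stimulated element GAAANNGAA was found in Cd84, at 2 places, and in Slamf8, against 8.56% of all promoters. The AP-1 motif TGANTCA was in 4 of the 8 (Cd244a, Slamf7, Cd84 and Slamf8), against 7.81%, and the GAS element TTCNNNGAA in 0 of the 8, against 8.30%. The AP-1 motif reads the same on both strands, and no match overlapped a match of a different motif. The promoters of Cd84, Slamf8, Slamf9 and Cd48 are printed because these genes stood higher in all 12 PS19 mice than in all 9 parental mice, with motif letters in capitals and, for Cd48, no match. They are written 5′ to 3′ on the gene's strand.
Cd84, chr1:171839447-171839746, plus strand: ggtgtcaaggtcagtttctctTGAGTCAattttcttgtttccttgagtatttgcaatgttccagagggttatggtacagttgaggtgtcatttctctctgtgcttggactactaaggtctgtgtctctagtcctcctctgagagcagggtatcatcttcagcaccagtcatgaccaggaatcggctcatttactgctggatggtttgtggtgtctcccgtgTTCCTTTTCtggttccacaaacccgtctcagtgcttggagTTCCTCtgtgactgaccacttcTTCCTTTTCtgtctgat
Slamf8, chr1:172590519-172590818, minus strand: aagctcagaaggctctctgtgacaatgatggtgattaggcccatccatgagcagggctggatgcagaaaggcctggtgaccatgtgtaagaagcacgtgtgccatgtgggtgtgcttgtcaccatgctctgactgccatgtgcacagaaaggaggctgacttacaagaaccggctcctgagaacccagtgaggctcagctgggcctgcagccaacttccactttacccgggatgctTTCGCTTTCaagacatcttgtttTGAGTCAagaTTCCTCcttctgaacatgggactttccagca
Slamf9, chr1:172475110-172475409, plus strand: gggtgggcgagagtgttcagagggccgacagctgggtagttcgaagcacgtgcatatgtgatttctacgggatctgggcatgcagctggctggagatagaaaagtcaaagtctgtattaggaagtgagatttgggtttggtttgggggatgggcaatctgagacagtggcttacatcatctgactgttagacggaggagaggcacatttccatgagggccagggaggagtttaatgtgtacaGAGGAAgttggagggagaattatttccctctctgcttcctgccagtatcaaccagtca
Cd48, chr1:171681742-171682041, plus strand: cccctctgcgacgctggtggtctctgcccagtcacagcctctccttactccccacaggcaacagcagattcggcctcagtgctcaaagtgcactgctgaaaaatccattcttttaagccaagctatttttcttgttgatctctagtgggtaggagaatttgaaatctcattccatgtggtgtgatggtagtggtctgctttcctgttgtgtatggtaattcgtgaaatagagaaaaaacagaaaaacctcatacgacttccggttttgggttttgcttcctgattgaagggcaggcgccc

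Levels between genes were compared in FPKM, which the authors had scaled for transcript length and library size. In the 9 parental mice the order of mean FPKM was Slamf9 (1.06 ± 0.229, SD), Cd48 (0.820 ± 0.290), Cd84 (0.532 ± 0.104), Ly9 (0.314 ± 0.0617), Slamf8 (0.101 ± 0.0322), Slamf6 (0.0328 ± 0.0202), Slamf1 (0.0325 ± 0.0204), Slamf7 (0.0208 ± 0.0188) and Cd244a (0.00735 ± 0.00918). In the 12 PS19 mice Cd48 (3.15 ± 1.14 FPKM) and Slamf9 (3.01 ± 0.754 FPKM) came first, followed by Cd84 (2.10 ± 0.675 FPKM) and Ly9 (1.90 ± 0.772 FPKM). Slamf8 followed at 0.284 ± 0.0823 FPKM, and the other 4 genes had means of 0.119 FPKM or less. Of all neighbours in either order, only Ly9 and Slamf8 had ranges that did not overlap. The family thus fell into an upper set of 4 genes, whose ranges overlapped from neighbour to neighbour, and a lower set of 5.

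Levels of the same gene between groups were compared in CPM, counts scaled to a common library size. A gene was called where edgeR's quasi-likelihood test gave an adjusted p under 0.05 over all genes tested and the fold change was at least 2. In PS/E4H against E4H mice, 7 of 9 members tested were called, all higher, where 2.98% of 20844 genes were called in either direction and 2.4% were called higher. In PS/E3H against E3H mice 6 of 9 were called, all higher, where 1.32% of 21251 genes were called and 1.2% were called higher. In PS/E2H against E2H mice 2 of 8 tested were called, both higher, where 0.485% of 20617 genes were called and 0.451% were called higher. In the mean over the 3 lines, fitted on all 21 mice, 8 of 9 were called higher and Slamf1 was not called, where 2.82% of 22863 genes were called and 2.42% were called higher. The median log2 fold change of the members was 1.52 in APOE2, 1.61 in APOE3 and 2.56 in APOE4 mice, beside -0.015, -0.0043 and -0.0023 over all genes tested, and 1.94 beside -0.0033 in the mean over the lines. Leaving out 1 mouse moved the APOE4 count to 4 (without any 1 of the E4H mice or without PS/E4H mouse 1) and otherwise to 6. The APOE3 count became 1 without E3H mouse 1, 2 without E3H mouse 2 or 3, 3 without PS/E3H mouse 2, 3 or 4, and 8 without PS/E3H mouse 1. The APOE2 count became 0 without E2H mouse 1 or 3 and 1 without PS/E2H mouse 1, and the mean over the lines gave 7 to 8. Members of a cluster share a locus and are not replicates. In bulk tissue, more cells of a type and more RNA per cell cannot be told apart.

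**Figure D1:**
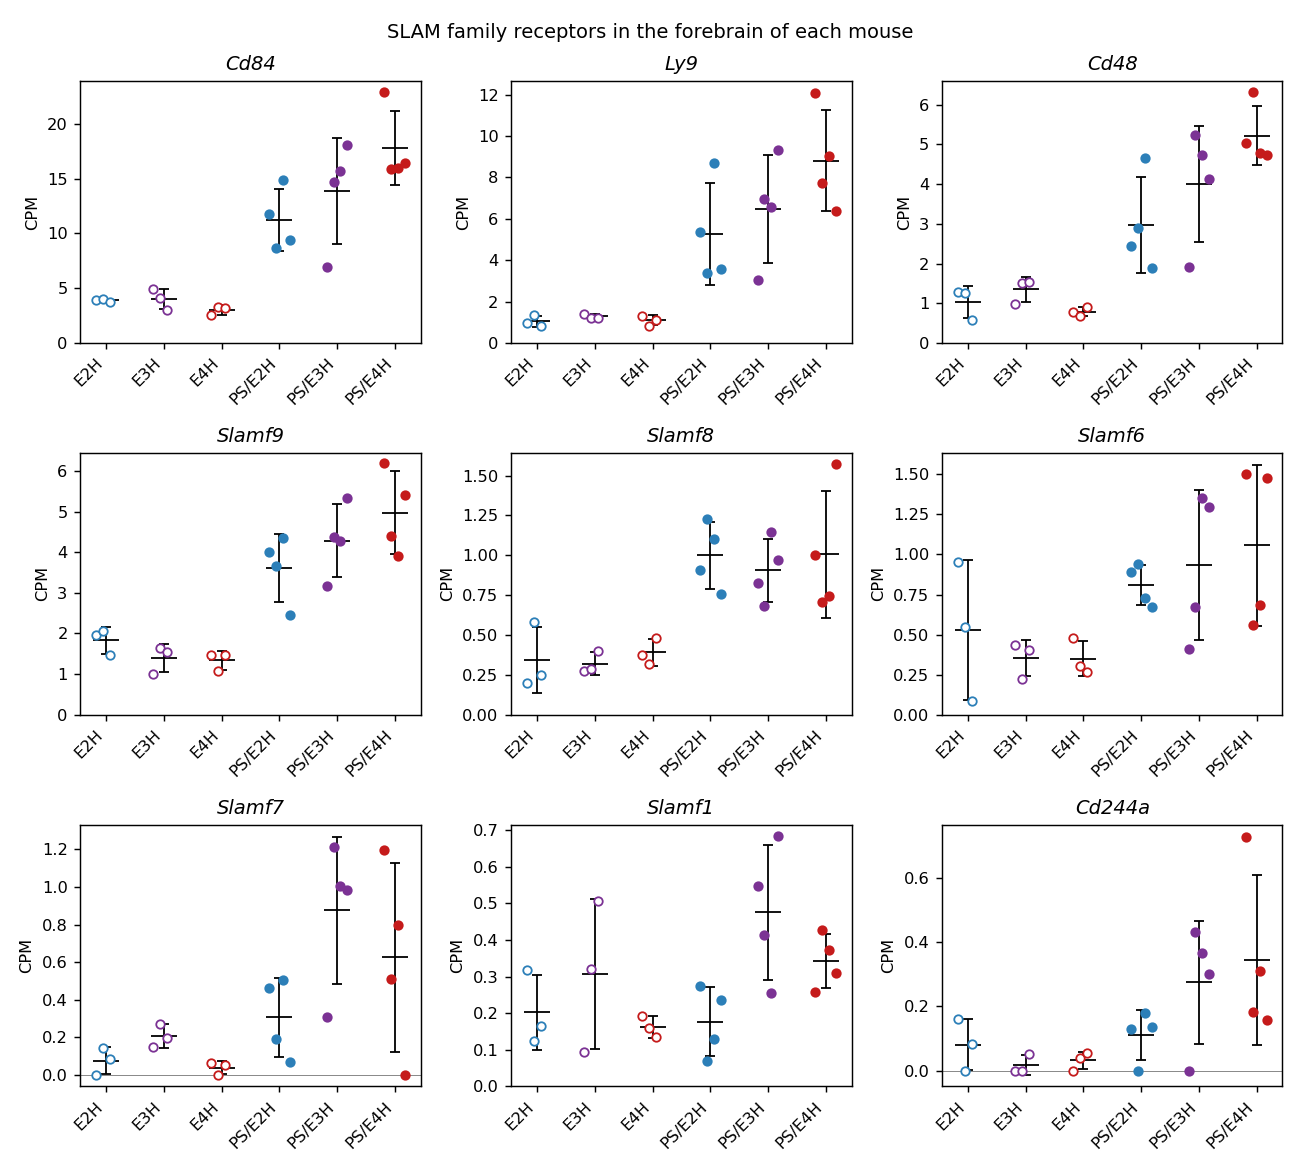
Level of each SLAM receptor (CPM, vertical axis, from 0 and on its own scale in each panel) in each mouse of the 6 groups (horizontal axis), with open points for parental and filled points for PS19 mice, and with the mean and SD of each group as bars. All 12 PS19 mice lie above all 9 parental mice for Cd84, Ly9, Cd48, Slamf9 and Slamf8, while the 12 and the 9 mice overlap for the other 4 genes.

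Cd84, a self-binding receptor found on macrophages, platelets and lymphocytes, had the most counts of the family. In APOE2 mice, Cd84 stood at 3.89, 4.05 and 3.70 CPM in the 3 E2H mice and at 11.8, 8.66, 14.9 and 9.37 CPM in the 4 PS/E2H mice. E3H mice had 4.91, 4.10 and 3.01 CPM of Cd84, against 6.96, 14.7, 15.7 and 18.1 CPM in PS/E3H mice. The E4H values of Cd84 were 2.51, 3.28 and 3.21 CPM and the PS/E4H values 22.9, 15.9, 16.0 and 16.4 CPM. All 12 PS19 mice exceeded the highest parental mouse, and the highest value of all was that of PS/E4H mouse 1. The ratio of group means was 2.89 in APOE2, 3.46 in APOE3 and 5.93 in APOE4 mice. On the log2 scale Cd84 rose by 1.52 ± 0.20 (SE) in APOE2 (edgeR adjusted p = 0.0114), 1.78 ± 0.30 in APOE3 (adjusted p = 0.0119) and 2.56 ± 0.17 in APOE4 mice (adjusted p = 4.37e-05). Leaving out single mice, the APOE4 call held in 7 of 7 fits. The edgeR call in APOE2 mice held in 5 of 7 and was lost without E2H mouse 1 (adjusted p = 0.0724) or E2H mouse 3 (adjusted p = 0.0801). The APOE3 call held in 4 of 7 (lost without E3H mouse 1 with an adjusted p of 0.0532, E3H mouse 2 with an adjusted p of 0.0540 or E3H mouse 3 with an adjusted p of 0.0655).

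Ly9, also called CD229, is a self-binding receptor with a long cytoplasmic tail, studied mostly on T and B cells. In APOE2 mice, Ly9 stood at 0.982, 1.34 and 0.798 CPM in the 3 E2H mice and at 5.34, 3.40, 8.71 and 3.59 CPM in the 4 PS/E2H mice. E3H mice had 1.41, 1.20 and 1.22 CPM of Ly9, against 3.03, 6.98, 6.55 and 9.32 CPM in PS/E3H mice. The E4H values of Ly9 were 1.31, 0.836 and 1.13 CPM and the PS/E4H values 12.1, 7.71, 9.05 and 6.39 CPM. The lowest PS19 value, in PS/E3H mouse 1, was above the highest parental value. Ly9 had the highest ratios of group means among the 5 genes without overlap, at 5.05, 5.07 and 8.07 in APOE2, APOE3 and APOE4 mice. It rose by 2.34 ± 0.37 (SE) on the log2 scale in APOE2 (edgeR adjusted p = 0.0257), 2.33 ± 0.33 in APOE3 (adjusted p = 0.00623) and 3.01 ± 0.26 in APOE4 mice (adjusted p = 1.27e-04). The APOE3 and APOE4 calls held when any of the 7 mice was left out. The APOE2 call held in 4 of 7 fits (lost without E2H mouse 1 with an adjusted p of 0.119, E2H mouse 3 with an adjusted p of 0.152 or PS/E2H mouse 1 with an adjusted p of 0.0732).

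Cd48 encodes a ligand held on the membrane by a lipid anchor, without a cytoplasmic tail, whose partners are CD244 and, in mice, CD2. In APOE2 mice, Cd48 stood at 1.29, 1.25 and 0.578 CPM in the 3 E2H mice and at 2.45, 2.89, 4.66 and 1.89 CPM in the 4 PS/E2H mice. E3H mice had 0.990, 1.52 and 1.53 CPM of Cd48, against 1.91, 5.24, 4.73 and 4.13 CPM in PS/E3H mice. The E4H values of Cd48 were 0.774, 0.677 and 0.901 CPM and the PS/E4H values 5.03, 6.31, 4.79 and 4.74 CPM. Among PS19 groups the PS/E4H mice had the smallest SD, and PS/E2H and PS/E3H mice spread down to 1.89 and 1.91 CPM. The ratio of group means was 2.86 in APOE2, 2.97 in APOE3 and 6.66 in APOE4 mice. The log2 fold change was 1.51 ± 0.38 (SE) in APOE2 mice, which was not called (edgeR adjusted p = 0.131). Cd48 rose by 1.56 ± 0.34 in APOE3 (edgeR adjusted p = 0.0277) and 2.73 ± 0.20 in APOE4 mice (adjusted p = 5.33e-05). The APOE4 call held in 7 of 7 fits without a mouse, and the APOE3 call in 1 of 7, the fit without PS/E3H mouse 1 (adjusted p 0.00104 to 0.133 over the 7).

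Slamf9 and Slamf8, the distal pair, have short cytoplasmic tails without switch motifs, and Slamf8 is known to restrain the oxidative burst of macrophages. In APOE2 mice, Slamf9 stood at 1.96, 2.07 and 1.46 CPM in the 3 E2H mice and at 4.02, 3.66, 4.35 and 2.44 CPM in the 4 PS/E2H mice. E3H mice had 1.0, 1.63 and 1.54 CPM of Slamf9, against 3.16, 4.38, 4.29 and 5.33 CPM in PS/E3H mice. The E4H values of Slamf9 were 1.47, 1.08 and 1.48 CPM and the PS/E4H values 6.19, 4.40, 3.90 and 5.41 CPM. The PS19 mice of Slamf9 stood above the parental mice in each line, by a ratio of means of 1.98, 3.08 and 3.71. It rose by 1.61 ± 0.25 (SE) on the log2 scale in APOE3 (edgeR adjusted p = 0.00847) and 1.88 ± 0.22 in APOE4 mice (adjusted p = 7.38e-04), while the 0.98 ± 0.25 of APOE2 mice was not called (adjusted p = 0.133). The APOE3 call of Slamf9 held in 6 of 7 fits without a mouse (lost without E3H mouse 1 with an adjusted p of 0.0520), and the APOE4 call in 7 of 7.

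Slamf8 was present at a fraction of these levels. In APOE2 mice, Slamf8 stood at 0.199, 0.583 and 0.248 CPM in the 3 E2H mice and at 0.907, 1.23, 1.10 and 0.759 CPM in the 4 PS/E2H mice. E3H mice had 0.271, 0.288 and 0.402 CPM of Slamf8, against 0.828, 0.685, 1.15 and 0.969 CPM in PS/E3H mice. The E4H values of Slamf8 were 0.372, 0.319 and 0.484 CPM and the PS/E4H values 1.0, 0.708, 0.747 and 1.57 CPM. Its groups did not overlap in any line, and its ratios of means were 2.91, 2.83 and 2.57. Slamf8 was called in APOE3 (1.48 ± 0.37, edgeR adjusted p = 0.0438) and APOE4 mice (1.35 ± 0.39, adjusted p = 0.0438) and not in APOE2 mice (1.55 ± 0.45, adjusted p = 0.204). Both calls lay near the threshold and held in 1 of 7 (without PS/E3H mouse 1) and 2 of 7 fits without a mouse (without PS/E4H mouse 2 or PS/E4H mouse 3), with an adjusted p of up to 0.167 and 0.161 in the others. All genes tested gave shares of 6.67%, 10.5% and 15% with every PS19 mouse above every parental mouse of the line (APOE2, APOE3 and APOE4), and 1.38% of 22863 genes stood higher in all 12 PS19 mice than in all 9 parental mice.

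**Figure D2:**
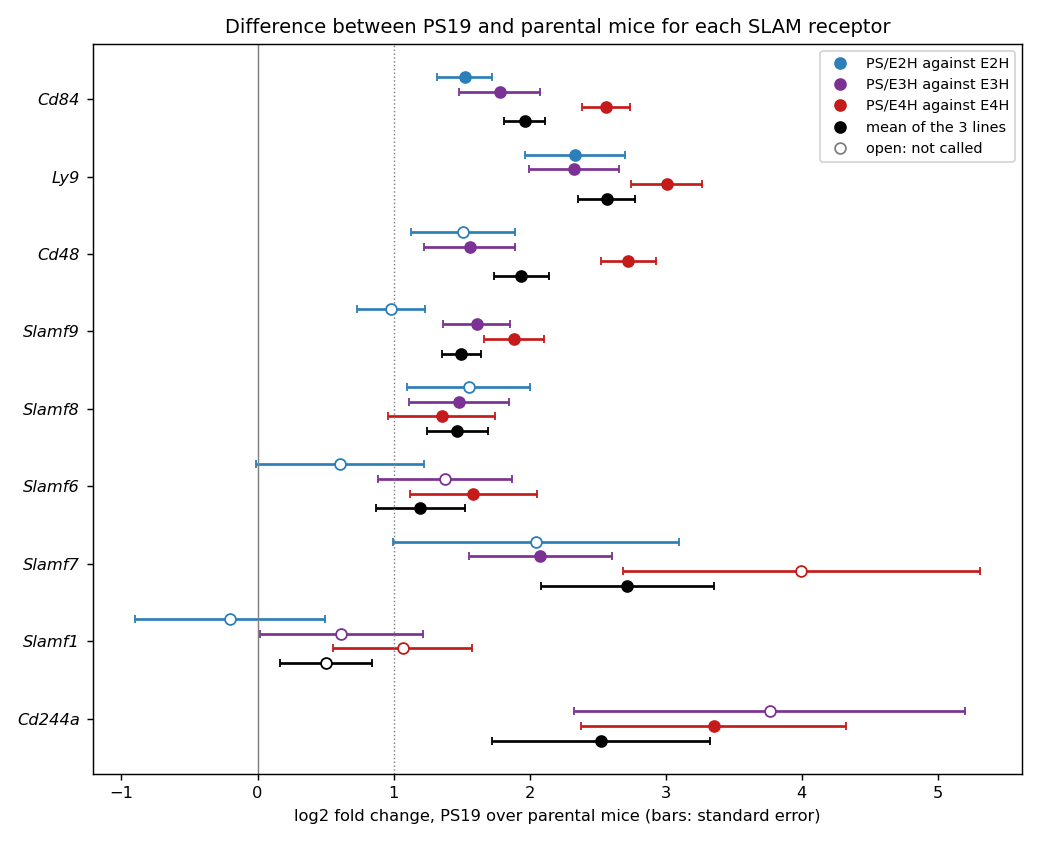
Log2 fold change of PS19 over parental mice (horizontal axis, bars are standard errors) for each SLAM receptor (vertical axis) in the 3 APOE lines and in the mean over them, with filled points for called and open points for uncalled differences. Cd84 and Ly9 are filled in all lines, Slamf1 is open throughout, and Cd244a has no APOE2 value because it was not tested there.

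The other 4 genes had few counts. Slamf6, a self-binding receptor also called Ly108, had 6 to 72 counts in parental mice and 29 to 95 in PS19 mice. It was called in APOE4 mice alone among the lines (1.59 ± 0.46, SE, edgeR adjusted p = 0.0444, held in 2 of 7 fits without a mouse, those without PS/E4H mouse 2 or PS/E4H mouse 3), and had log2 fold changes of 0.61 ± 0.62 and 1.38 ± 0.49 in APOE2 and APOE3 mice (adjusted p = 0.816 and 0.136). The E2H mice alone spread over 72, 31 and 6 counts, and only in APOE4 mice did PS19 and parental mice not overlap in CPM.

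Slamf7, a self-binding receptor that takes part in phagocytosis by macrophages and marks plasma cells, had 0, 8 and 6 counts in E2H mice and 32, 11, 31 and 4 in PS/E2H mice. In APOE3 mice its counts were 11, 17 and 15 in E3H and 22, 76, 63 and 69 in PS/E3H mice. The E4H mice had 4, 0 and 4 and the PS/E4H mice 74, 31, 49 and 0 counts. PS19 and parental mice did not overlap in APOE3 mice. PS/E4H mouse 4 was listed at 0, with 31 to 74 counts in the other 3. Slamf7 was called in APOE3 mice (2.08 ± 0.53, SE, edgeR adjusted p = 0.0477), and in 1 of 7 fits without a mouse, that without PS/E3H mouse 1. In the edgeR fit of the 2 groups it was not called in APOE4 mice (adjusted p = 0.0662) or in APOE2 mice (adjusted p = 0.543). The APOE4 difference gained a call in the edgeR fit of all 21 mice (adjusted p = 0.0313), in that with the replicate block (adjusted p = 0.0320) and by DESeq2 (adjusted p = 0.00451). Of its windows of 50 bases, 7.14% also occur on the opposite strand in transcripts of other genes.

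Cd244a, the CD48 receptor 2B4 of NK cells, had 0, 3 and 4 counts in E4H mice and 45, 11, 19 and 10 in PS/E4H mice. In E3H mice it had 0, 0 and 4 counts, and in PS/E3H mice 0, 27, 23 and 21. E2H mice held 12, 0 and 6 and PS/E2H mice 9, 0, 11 and 8 counts, too few for the test. The ranges overlapped in APOE2 and APOE3 mice, and in APOE4 mice they did not. Its APOE4 call (edgeR adjusted p = 0.0434) held in 1 of 7 fits without a mouse, that without PS/E4H mouse 4. The call was lost in the edgeR fit of all 21 mice (adjusted p = 0.133), without the filter on low counts (adjusted p = 0.0948) and with the replicate block (adjusted p = 0.148), and DESeq2 gave no adjusted p. In APOE3 mice Cd244a was not called by edgeR (adjusted p = 0.160).

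Slamf1, or CD150, a self-binding receptor and a bacterial sensor of macrophages, was the member without a call. Its counts were 7 to 39 in parental and 4 to 48 in PS19 mice, and the log2 fold changes were -0.20 ± 0.70, 0.62 ± 0.60 and 1.07 ± 0.51 (SE) in APOE2, APOE3 and APOE4 mice (edgeR adjusted p = 0.962, 0.617 and 0.193). The log2 fold change in the mean over the lines was 0.50 ± 0.34 (edgeR adjusted p = 0.328). In APOE4 mice its PS19 and parental CPM values did not overlap, and in the other lines they did.

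The family was compared between APOE lines within parental and within PS19 mice. Females were in E4H, PS/E2H and PS/E4H only. In the paper's survival data PS/E3H mice reached paralysis later than PS/E2H and PS/E4H mice. The allele can therefore not be told apart from sex, except in E2H against E3H mice, which were all male. In the comparisons with PS/E3H mice it can also not be told apart from age at death. Between PS/E2H and PS/E4H mice the paper found no statistical difference in age at paralysis. Ages of the sequenced mice were not used here. By edgeR, 0 of the 7 to 9 members tested were called in any of the 6 comparisons. Among parental mice 0.144%, 0.1% and 0.187% of all genes were called for APOE2 against APOE3, APOE4 against APOE3 and APOE4 against APOE2, and among PS19 mice 0.108%, 0.0197% and 0.109%. At an unadjusted p under 0.05 there were 0, 2 and 0 members in parental and 2, 0 and 3 in PS19 mice. Over all genes the edgeR counts at that limit were 2933 of 20797, 1397 of 20958 and 2570 of 20804 in parental mice. In PS19 mice they were 2383 of 20324, 1324 of 20332 and 2491 of 20202. DESeq2 and limma on FPKM called 0 members as well. In PS19 mice all 9 log2 differences of APOE4 against APOE2 were positive, from 0.01 to 1.6. Cd84 and Cd48 did not overlap there, with PS/E4H mice higher, where 6.82% of genes had groups without overlap in either direction. The other 2 pairs of PS19 groups overlapped in every member, where 5.37% (APOE2 against APOE3) and 3.85% (APOE4 against APOE3) of genes did not. In APOE4 against APOE2 the log2 difference of Cd84 was 0.67 ± 0.18 (SE, edgeR adjusted p = 0.282) and that of Cd48 was 0.81 ± 0.25 (adjusted p = 0.309). In parental mice Cd84 was ordered the other way, with 2.51 to 3.28 CPM in E4H and 3.70 to 4.05 CPM in E2H mice, where 21.3% of genes had groups without overlap. Slamf7 was lower in E2H than in E3H mice without overlap (23.3% of genes), and Cd48 and Slamf7 were lower in E4H than in E3H mice (12.7% of genes).

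The difference between lines in the effect of PS19 was tested as an interaction. At an adjusted p under 0.05 edgeR called 0 members and 0% of all genes in each of the 3 tests, and DESeq2 and limma on FPKM called 0 members. At an unadjusted p under 0.05 there were 0 members for APOE2 against APOE3, 2 for APOE4 against APOE3 and 3 for APOE4 against APOE2. Over all 22863 genes tested, 1555, 682 and 2610 passed that limit in the same order. The edgeR estimate of the effect was larger in APOE4 than in APOE2 mice by 1.04 ± 0.36 (SE) on the log2 scale for Cd84 (adjusted p = 0.283), by 1.22 ± 0.48 for Cd48 (adjusted p = 0.335) and by 0.90 ± 0.34 for Slamf9 (adjusted p = 0.317). For Ly9 the difference was 0.67 ± 0.49 (edgeR adjusted p = 0.646). None passed the adjustment, so the higher number of members called in APOE4 than in APOE2 mice was not shown to be a difference between lines.

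Members of the family were not uniform among PS19 mice of a group. PS/E3H mouse 1 had the lowest value of its group in 7 of 9 members and PS/E2H mouse 4 in 5 of 9, with summed levels of 17.2 and 19.2 CPM over the family, where the other PS19 mice had 21 to 50.9 CPM. Parental mice had 6.69 to 10.1 CPM. The same 2 mice had the lowest sums of homeostatic microglial markers among PS19 mice, 632 and 470 CPM, and of disease-associated markers in their groups, 252 and 244 CPM. Their part in the spread was not tested.

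Marker genes of microglia and other cells that could carry these receptors were read in the same mice. The sum of 11 homeostatic microglial markers, such as P2ry12 and Tmem119, was 427 to 547 CPM in parental, 470 to 818 in PS/E2H, 632 to 868 in PS/E3H and 806 to 959 in PS/E4H mice, and 0, 2 and 3 of the 11 genes were called higher in APOE2, APOE3 and APOE4 mice by edgeR and by DESeq2 (4, 7 and 9 at an unadjusted p under 0.05). The 10 disease-associated markers, such as Itgax and Cst7, summed to 115 to 159 CPM in parental and 244 to 635 CPM in PS19 mice, with 5, 8 and 8 called higher. Border macrophage markers (7 genes) summed to 7.79 to 15 CPM in parental and 18.3 to 35.5 CPM in PS19 mice, with 0, 3 and 4 called by edgeR and 4, 4 and 5 by DESeq2. Over all genes, edgeR called 0.451%, 1.2% and 2.4% higher in APOE2, APOE3 and APOE4 mice. An unadjusted edgeR p under 0.05 was reached by 2203 of 20617 in APOE2, 4541 of 21251 in APOE3 and 6282 of 20844 in APOE4 mice. The part of these cells in the result was not tested.

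Lymphocyte markers were sparse. The 9 T cell genes summed to 16.9 to 23.0 CPM in parental and 14.2 to 21.7 CPM in PS19 mice, most of it Cd4 (377 to 826 counts) and Trbc2 (303 to 737 counts), and Cd3g was called in APOE4 mice by edgeR and not by DESeq2. In the mean over the lines Cd8b1, Jchain, Klrb1c, Ccr7, Ngp, S100a8, Ccr2 and Chil3 were called higher, where 2.42% of all genes were. Cd3d, Cd3e and Cd3g had 0 to 19, 0 to 29 and 0 to 35 counts. Cd8a and Cd8b1 had 0 to 25 and 0 to 16 counts, and Cd3d and Cd8b1 were at 0 in the median mouse. The 7 B or plasma cell genes summed to 0.803 to 2.81 and 1.49 to 8.47 CPM, with 0 called in a line by edgeR (0, 1 and 1 at an unadjusted p under 0.05, and 0, 1 and 1 by DESeq2) and Ms4a1 at 0 in the median mouse. The 5 NK cell genes summed to 0 to 0.519 and 0.137 to 0.494 CPM, with 0 called in a line by edgeR or DESeq2 (1, 0 and 1 at an unadjusted p under 0.05) and Ncr1, Klre1 and Prf1 at 0 in the median mouse. Dendritic cell genes (6) summed to 18 to 24.6 and 16.0 to 21.8 CPM, with 0 called in a line by edgeR or DESeq2 (0, 3 and 2 at an unadjusted p under 0.05). Of 6 neutrophil genes S100a8 was called in APOE4 mice (0.298 to 8.90 and 0.154 to 35.1 CPM in sum), and of 4 monocyte genes 0 were called in a line by edgeR or DESeq2 (0, 3 and 1 at an unadjusted p under 0.05, 0.495 to 2.27 and 0.393 to 8.55 CPM). The forebrain genes Tbr1, Emx1 and Neurod6 were present in every mouse and summed to 163 to 210 CPM in parental and 108 to 172 CPM in PS19 mice.

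The 4 genes with most FPKM were then set against the microglial sums of the same mouse. Per 1000 CPM of homeostatic markers, the PS19 groups were higher than their lines by ratios of 3.43, 2.92 and 4.04 (APOE2, APOE3 and APOE4) for Ly9, without overlap in any line. Cd84 had ratios of 1.98, 2.0 and 2.96 and Slamf9 of 1.34, 1.81 and 1.85, again without overlap in any line. For Cd48 the ratios were 1.91, 1.73 and 3.37, with overlap in 1 line. Per 1000 CPM of disease-associated markers, Ly9 kept ratios of 2.18, 1.5 and 2.50 without overlap in any line. Cd84 had 1.29, 1.04 and 1.84, with overlap in APOE3 mice, and Cd48 had 1.23, 0.908 and 2.14, with overlap in 2 lines. Slamf9 had 0.889, 0.965 and 1.17, with overlap in all 3. Of these 4, Ly9 stood above parental mice on both scales in every line and Slamf9 on the homeostatic scale alone. The disease-associated sum leans on its genes with most counts. Axl, Lpl and Spp1 had at least 2783, 1301 and 1051 counts in every mouse, where Itgax, Clec7a and Cst7 went down to 42, 28 and 12. A ratio to that sum is therefore not a ratio to each of its markers. These ratios have no test.

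**Figure D3:**
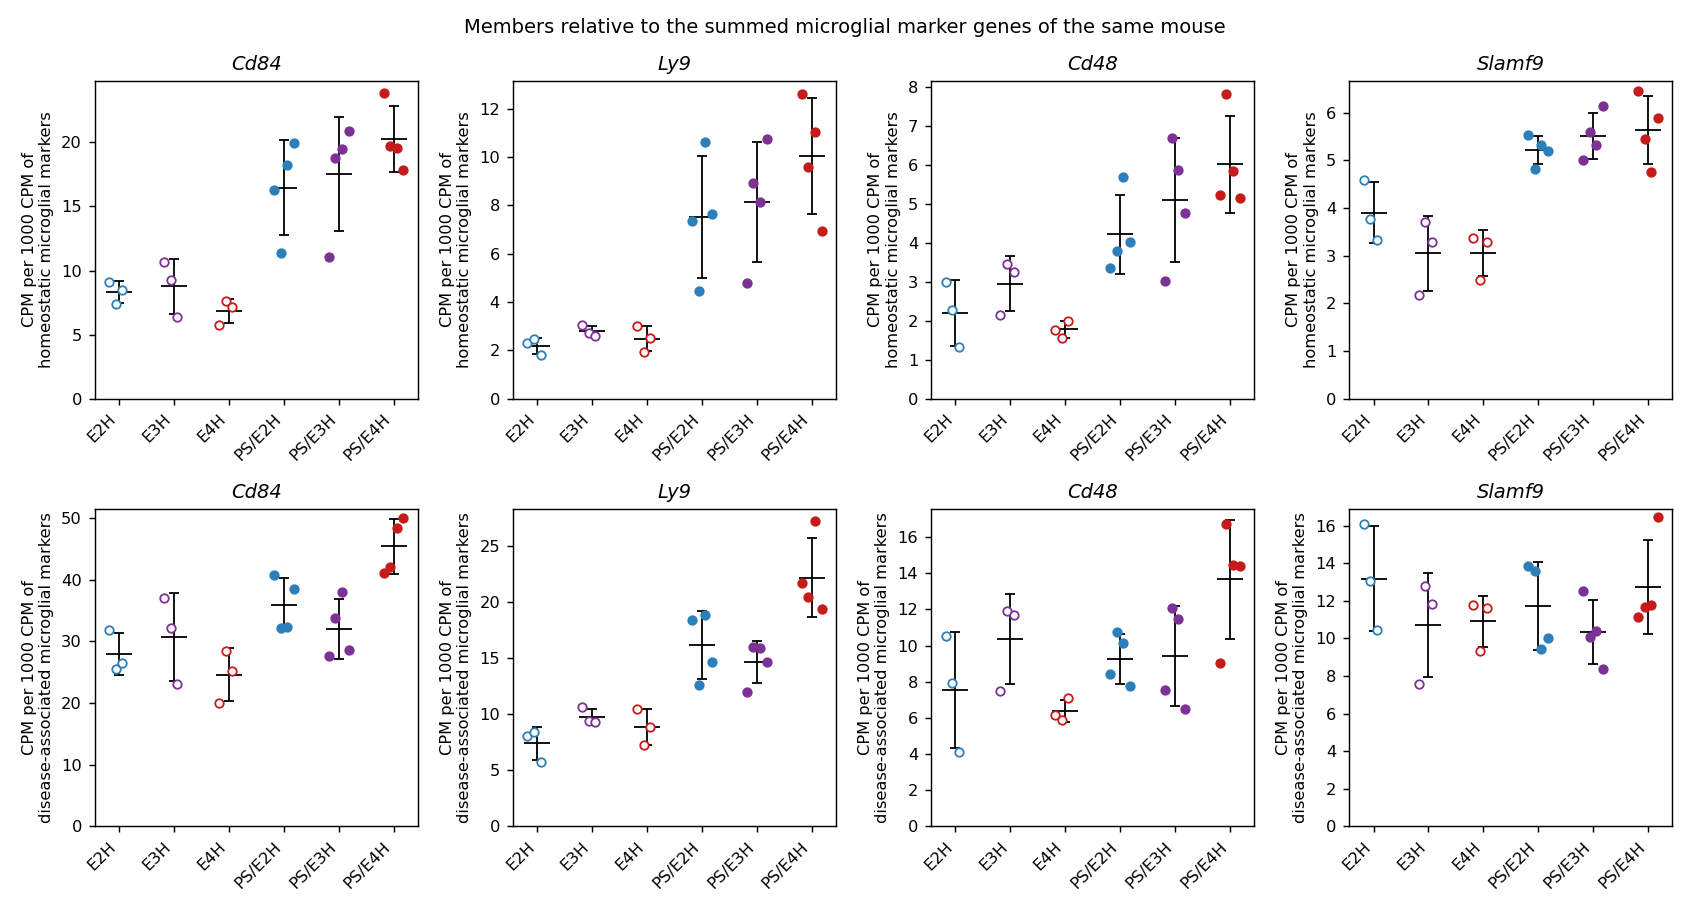
Level of Cd84, Ly9, Cd48 and Slamf9 per 1000 CPM of summed homeostatic (top row) or disease-associated (bottom row) microglial markers of the same mouse (vertical axes, from 0) in the 6 groups (horizontal axis), with open points for parental mice, filled points for PS19 mice, and bars for mean and SD. In the bottom row Slamf9 overlaps between groups in each line while Ly9 does not.

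The other protein-coding genes between the first and the last member give the local background. Of 19, 17 to 18 were tested in each line and 0 were called by edgeR or DESeq2. Over all genes, edgeR called 0.485%, 1.32% and 2.98% in APOE2, APOE3 and APOE4 mice. At an unadjusted p under 0.05 there were 4, 4 and 10 in APOE2, APOE3 and APOE4 mice. Over all genes 2203 of 20617, 4541 of 21251 and 6282 of 20844 passed that limit. In the mean over the lines 1 was called, Nhlh1, which was lower, where 0.398% of all genes were called lower. The median log2 fold change of the neighbours was 0.04, 0.08 and 0.06 in APOE2, APOE3 and APOE4 mice and 0.09 in the mean over the lines. Slamf9 and Slamf8 stood higher in PS19 mice. Of the 18 neighbours beyond the core, up to the end of Slamf8, 0 were called higher. In the mean over the lines 2.42% of all genes were called higher. At such a share, 0 of 18 is no result about these neighbours.

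**Figure D4:**
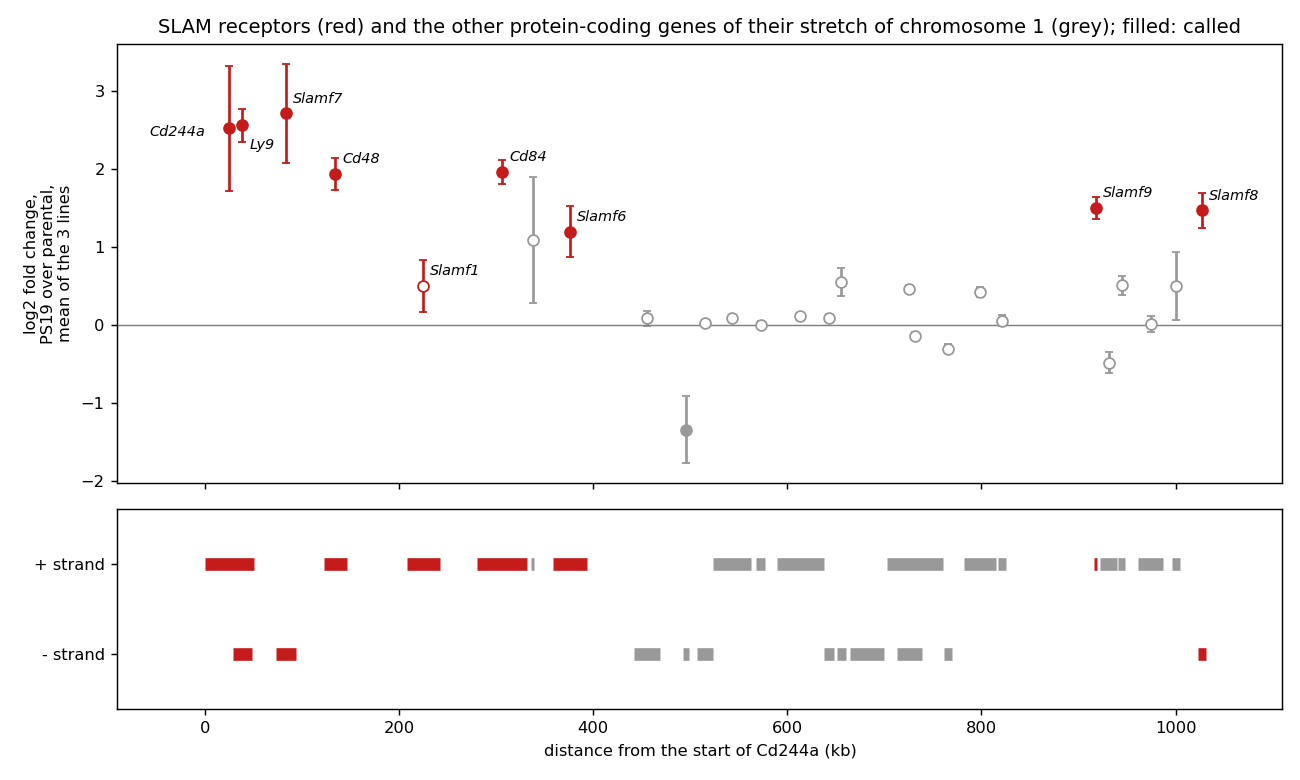
Upper panel, log2 fold change of PS19 over parental mice in the mean over the 3 lines (vertical axis, bars are standard errors) against distance from the start of Cd244a in kb (horizontal axis), with SLAM receptors in red, the other protein-coding genes in grey and called genes filled. The lower panel shows the extent of each gene on the plus and minus strand. All red points but Slamf1 are filled and above 1, and the 1 filled grey point, Nhlh1, is below 0.

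A list of 27 genes that act with or behind the receptors, drawn up with earlier results known, was read beside them. Of the genes tested, 1 of 26, 7 of 24 and 12 of 24 were called higher in APOE2, APOE3 and APOE4 mice and 9 of 26 in the mean over the lines, and 0 were called lower. Over all genes tested, 0.451%, 1.2% and 2.4% were called higher in the lines and 2.42% in the mean. The adaptors were near the limit of detection. SAP, encoded by Sh2d1a, had 0 to 32 counts and was not called. EAT-2, encoded by Sh2d1b1, had 0 to 14 counts in parental and 0 to 28 in PS19 mice and was called higher in the mean over the lines (edgeR adjusted p = 0.0118), where all E3H mice were at 0. Sh2d1b2 had 0 to 4 counts and was not tested.

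Of 4 Src family kinases, the myeloid kinase Fgr rose by 3.43 ± 0.40 (SE) on the log2 scale in APOE3 (edgeR adjusted p = 0.00251) and 3.86 ± 0.35 in APOE4 mice (adjusted p = 1.72e-04). Lyn rose by 1.09 ± 0.12 in APOE4 mice (edgeR adjusted p = 4.21e-04). Fyn, which SAP recruits in lymphocytes, had log2 fold changes of 0.06, -0.02 and -0.04 and was not called, nor was Lck. Of 3 phosphatases Ptpn6, which encodes SHP-1, rose from 4.29 ± 0.117 CPM (SD) in E4H to 13.9 ± 1.80 CPM in PS/E4H mice (edgeR adjusted p = 6.83e-05) and was called in APOE3 mice as well (adjusted p = 0.00448). Of 6 downstream proteins the exchange factor Vav1 was called in APOE3 and APOE4 mice, and the docking protein Dok1 and the phospholipase Plcg2 in APOE4 mice.

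Of 10 phagosome partners, 1, 4 and 6 were called higher in APOE2, APOE3 and APOE4 mice, where 0.451%, 1.2% and 2.4% of all genes were. The NADPH oxidase subunit Cybb rose by 2.93 ± 0.39 (SE) in APOE3 and 3.63 ± 0.34 in APOE4 mice on the log2 scale (edgeR adjusted p = 0.00448 and 1.97e-04), while the 2.32 ± 0.44 of APOE2 mice missed the threshold (adjusted p = 0.0513). Its cytosolic partner Ncf1 (1.08 ± 0.12, edgeR adjusted p = 0.00588) was called in APOE2 mice and in both other lines. Cyba and the integrin chain Itgb2 were called in APOE3 and APOE4 mice, and Ncf4 and Itgam in APOE4 mice. Becn1, Pik3c3, Pik3r4 and Uvrag, of the lipid kinase complex that SLAMF1 is known to bind, were not called, with log2 fold changes between -0.12 and 0.13. Cd2, a partner of CD48 outside the cluster, had 0 to 31 counts and was not called.

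**Figure D5:**
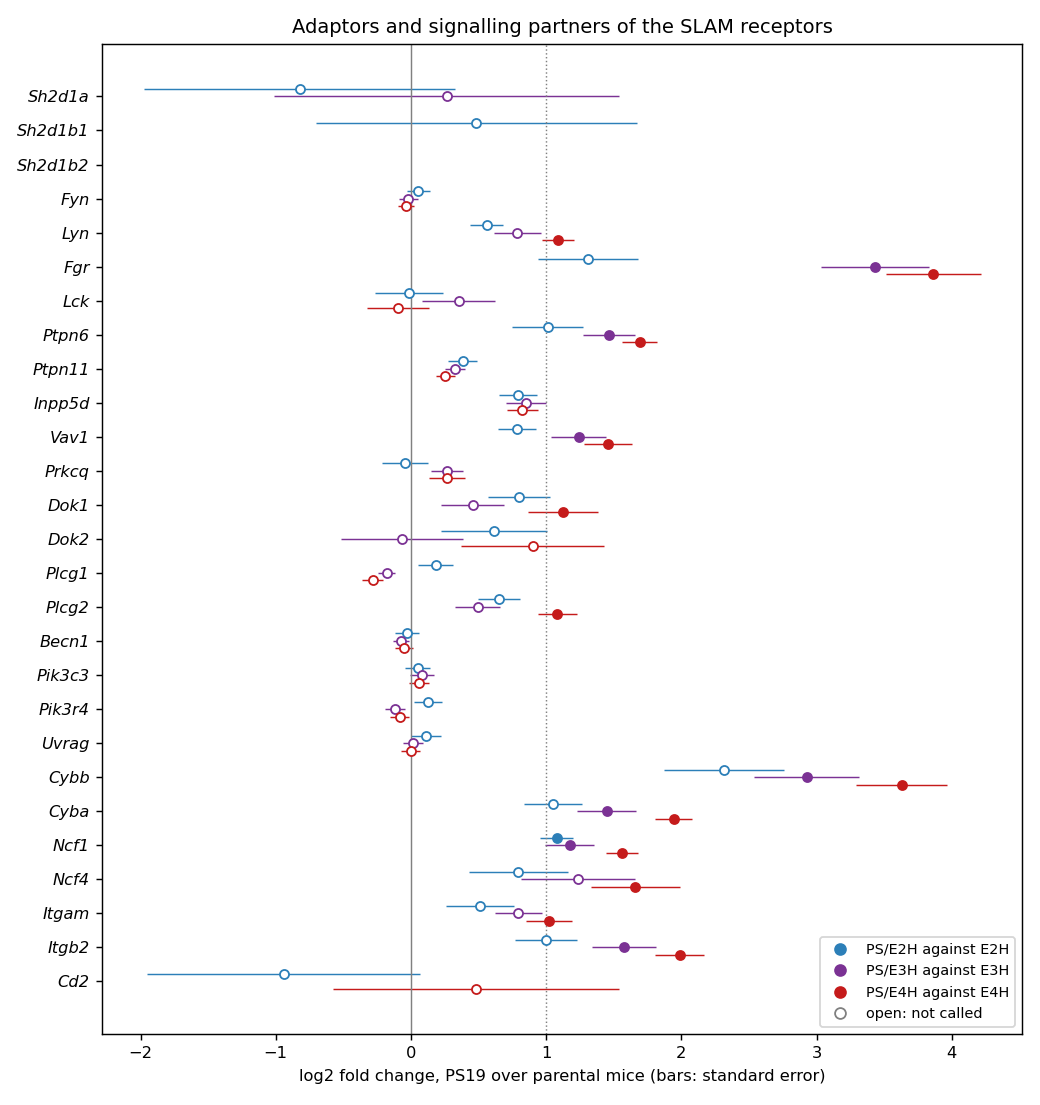
Log2 fold change of PS19 over parental mice (horizontal axis, bars are standard errors) for the adaptors and signalling partners of the SLAM receptors (vertical axis) in the 3 APOE lines, with filled points for called genes and no point where a gene was not tested. Fgr, Cybb and Itgb2 are filled in APOE3 and APOE4 mice, and Becn1, Pik3c3, Pik3r4 and Uvrag lie near 0.

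For each member, genes were taken from the 3 with the highest Pearson correlation of log2 CPM over the 21 mice. The points share library and depth and fall into 6 groups, so each r is a description, and is followed by r after group means were removed. The genes most like Cd84 were C3ar1 (0.99, 0.90), C4b (0.98, 0.84) and Mpeg1 (0.98, 0.87). Ly9 was most like Mpeg1 (0.98, 0.90), C3ar1 (0.98, 0.81) and Cd84 (0.98, 0.81). Cd48 went with Hk2 (0.95, 0.74), Tnfaip8l2 (0.95, 0.70) and C3ar1 (0.95, 0.62), and Slamf9 with Tlr2 (0.98, 0.89), Tyrobp (0.97, 0.74) and Ctsz (0.97, 0.74). C3ar1 appeared for Cd84, Ly9 and Cd48, and Mpeg1 for Cd84 and Ly9. Lower values were found for Slamf8, with Epsti1 (0.91, 0.53), Cebpa (0.90, 0.68) and Lag3 (0.90, 0.56), and Slamf6, with Il21r (0.84, 0.77). For the genes with fewest counts the leading genes were Npc1 (0.85, 0.67), Mmp12 (0.84, 0.63) and St6gal1 (0.82, 0.60) for Slamf7, Prima1 (0.75, 0.61), Dsg2 (0.74, 0.65) and Snap29 (0.71, 0.76) for Slamf1 and Ctla2b (0.90, 0.90), Msi2 (0.90, 0.82) and Znrf2 (0.90, 0.80) for Cd244a. Between members, Cd84 and Ly9 had r = 0.98 (0.81 after group means were removed) and Cd48 and Slamf9 r = 0.93 (0.70), while Slamf1 had r of 0.42 or less with every other member.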

How the data were processed

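Poly(A) RNA of pulverized forebrain from 21 mice was sequenced as paired-end, stranded libraries. The authors trimmed reads with cutadapt, mapped them with HISAT2 to Ensembl release 101 (GRCm38.p5 in the submitters' notes) and assembled and quantified transcripts with StringTie. The deposited count values are whole-number read counts per gene, not normalized, and the deposited FPKM values were scaled by the authors for gene length and library size. Total counts were 59265459 to 75932183 per mouse.

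Symbols were matched to 55141 of 55401 identifiers. Differences were tested with edgeR 4.0.16 (R 4.3.3), using TMM scaling, filterByExpr (minimum count 10, total 15) and the quasi-likelihood test with Benjamini-Hochberg adjustment over all genes tested. Each of 9 comparisons used the 2 groups concerned, and 1 fit of all 21 mice gave the mean effect of PS19 over the lines and its 3 differences between lines. A gene was called at an adjusted p under 0.05 and a fold of at least 2 (differences between lines, adjusted p alone). The test was checked on counts simulated for PS/E3H against E3H mice, with changes planted only in genes above 1 CPM. That check does not cover genes with lower levels. DESeq2 1.42.0, limma 3.58.1 on log2(FPKM + 1) or log2(FPKM + 0.1), other scaling, no filter, a replicate block and leaving out each mouse were alternatives. Correlations used log2(CPM + 0.1). The 27 pairs of libraries within groups held 0 identical pairs. The members, gene lists and rules for named genes were chosen with earlier results of these data known. All 9 members, the called genes of the lists and the 3 genes most like each member were named, except for a few genes that are not reported here and were left out of the lists and their counts. Protein sequences were not used here. Figures were drawn with matplotlib 3.10.9.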

Additional observations from a re-analysis of the deposited data

Results flagged for a closer look

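Cd84 in PS/E4H mouse 1 stood apart from the other mice of its group. It had 22.9 CPM, where the next mouse had 16.4 and the lowest 15.9 CPM, and the gap to the next mouse was 0.921 of the whole range, above Dixon's limit for 4 samples. In all, 27 values of a member in a PS19 group were examined and 1 passed, where chance passes about 5% of them. Without this mouse Cd84 remained called in APOE4 mice.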

How the results depend on the processing

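The number of members called moved with the processing. In APOE2 mice it was 2, and became 4 in 1 fit of all 21 mice and 0 by limma on log2(FPKM + 1). In APOE3 mice it was 6, and became 3 without the filter on low counts, 3 with the replicate block, 1 by limma on log2(FPKM + 1) and 3 with log2(FPKM + 0.1). In APOE4 mice it was 7, and became 4 without the filter and 4 by limma with either pseudocount. In the mean over the lines it was 8, and became 2 by limma on log2(FPKM + 1) and 4 with log2(FPKM + 0.1). DESeq2 called 3 members in APOE2, 6 in APOE3, 7 in APOE4 and 8 in the mean, and its 7 hold Slamf7 and not Cd244a, which had no adjusted p by DESeq2. Leaving out 1 mouse gave 0 to 2 in APOE2, 1 to 8 in APOE3, 4 to 6 in APOE4 and 7 to 8 in the mean, and the mice behind each shift are named beside the counts above. The sign of Slamf1 in APOE2 mice turned, with log2 fold changes from -0.50 to 0.29. It was 0.29 without E2H mouse 1 and 0.06 without PS/E2H mouse 2. Comparisons between APOE alleles, and differences between lines, gave 0 members under every alternative run. Of 210 values of single genes under alternatives that kept all mice and gave an adjusted p, 169 kept their side of the threshold, 35 lost it, 6 gained it and 0 turned. Genes called in all ran from 30 to 270 in APOE2, 60 to 1141 in APOE3, 133 to 3252 in APOE4 and 82 to 4993 in the mean, where the main counts were 100, 281, 621 and 645. The highest counts in APOE3, APOE4 and the mean came without the fold limit, and 270 came from DESeq2. Deviations of mice with the same replicate number had r from -0.22 to 0.25, over 0.1 in 4 of 27 pairs. With so few mice in a group this cannot decide whether the number marks a batch, and the main fits did not use it. The replicate block gave 2, 3, 5 and 8 members. The cause of these shifts was not tested. Slamf7, Slamf6, Slamf1 and Cd244a had at most 95 counts in any mouse.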
